A study of Mus musculus with 12 samples.

Results

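Alas2, Bpgm, Hba-a1 and Car2 are genes of the red blood cell that were followed here in mouse skeletal muscle, as a measure of RNA from blood or from developing red cells. They are 4 of the 8251 genes that the array's annotation names alone, and each was measured by 1 probe set. All probe sets annotated to 1 of these symbols alone were taken. The genes were selected on their measured values: they were the red cell markers that passed the genotype test in the TA muscle in earlier work on these arrays. The TA values are therefore given as a description. A test is given in the other muscle, QF, whose difference the rule did not use, although its results were known when the genes were picked and the variance of the test is shared with the TA arrays.

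Total RNA was measured on 12 single-channel arrays from mice aged 3 weeks, 3 arrays for each combination of genotype and muscle. Dysf_null stands for the line C57BL/10-SJL.Dysf, labelled Dysf -/-, in which the SJL dysferlin mutation sits on a C57BL/10 background, and Control for C57BL/10, labelled Dysf +/+. The labels name the muscles QF and TA, here taken as the quadriceps femoris and the tibialis anterior. Whether the 3 arrays in each group represent different mice is not in the labels, so the spread behind each p-value is that of the arrays and may be technical.

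Defining muscle fibre genes were abundant in all groups: 9 of 11 listed were tested, and none passed in either muscle. Their summed normalized intensity was 100857 to 103824 in Control QF and 93850 to 98725 in Dysf_null QF, which did not overlap. In TA it was 88612 to 100212 in Control and 80849 to 95798 in Dysf_null mice. Of the 9, 1 was positive in each muscle, with median differences of -0.07 in QF and -0.19 in TA. The part of fibre content in the red cell values was not tested. The 2 QF arrays numbered 2 stood apart, with deposited medians of 106.1 and 107.1 against 72.8 to 84.3 on the other 10, and are left out in turn where that matters. The ratio of the 3′ to the 5′ control probe set of Gapdh, a sign of RNA quality, was 0.856 to 0.966 in Dysf_null and 0.779 to 0.896 in Control arrays. The transcript of Dysf itself was not analysed here.

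Red cells carry oxygen on haemoglobin, which is built from alpha and beta globin chains that each hold a haem group. Developing red cells make haem and globin together under the control of GATA1 and KLF1, and young red cells that have just lost their nucleus still hold much of this RNA when they enter the blood. Muscle is rich in blood vessels, so a muscle sample holds some red cells. Alas2 encodes the form of aminolevulinate synthase that starts haem synthesis in red cells. Hba-a1 encodes the adult alpha globin chain. Bpgm encodes the mutase that makes bisphosphoglycerate, which lowers the affinity of haemoglobin for oxygen. Car2 encodes carbonic anhydrase II, which interconverts carbon dioxide and bicarbonate in red cells and is also the proton source of osteoclasts.

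The start regions of 3 of the 4 genes matched a RefSeq entry (GRCm38.p6), and the 250 bases before each start are shown. Over all arrays the levels of Alas2, Bpgm and Hba-a1 correlated with r of 0.845 to 0.967, which the choice by TA values favours. Within groups, on the normalized values, Alas2 went with Bpgm (r = 0.738), but Hba-a1 with neither (r = -0.158 and -0.081). Shared control of these genes was not tested. Capitals mark the letters AGATAA or TTATCT, which GATA factors read, and CCNCNCCC or GGGNGNGG, the CACC box type read by KLF factors, searched on both strands.
Alas2, chrX:150547167-150547416, plus strand: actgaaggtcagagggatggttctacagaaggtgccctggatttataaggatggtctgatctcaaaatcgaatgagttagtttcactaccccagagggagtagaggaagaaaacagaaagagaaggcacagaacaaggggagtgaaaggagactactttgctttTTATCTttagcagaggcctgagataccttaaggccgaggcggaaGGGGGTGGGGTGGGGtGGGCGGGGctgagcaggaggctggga
Bpgm, chr6:34476106-34476355, plus strand: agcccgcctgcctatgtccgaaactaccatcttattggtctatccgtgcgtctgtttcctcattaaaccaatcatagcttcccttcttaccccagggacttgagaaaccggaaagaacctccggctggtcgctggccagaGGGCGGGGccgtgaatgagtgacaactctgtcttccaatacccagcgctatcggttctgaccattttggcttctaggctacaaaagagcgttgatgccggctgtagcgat
Hba-a1, chr11:32283422-32283671, plus strand: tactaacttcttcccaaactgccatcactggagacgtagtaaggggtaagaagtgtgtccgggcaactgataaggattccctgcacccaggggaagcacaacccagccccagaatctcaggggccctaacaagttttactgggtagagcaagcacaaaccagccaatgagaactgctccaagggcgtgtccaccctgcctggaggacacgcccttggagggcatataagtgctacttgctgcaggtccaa

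The Alas2 region held 1 GATA match, at bases -86 to -81 from the start, and 4 overlapping or adjacent CACC matches. The Bpgm region held 1 CACC match, at bases -110 to -103, and the Hba-a1 region held no match to these exact letters. Other spellings were not searched, and the Hba-a1 region reads tgataa, 1 base off AGATAA. Of 32851 start regions of this length, 9.99% held a GATA match and 45.9% a CACC match. The NFE2 motif, searched on both strands, was in none of the 3 regions and in 0.134% of all. The exact letters TATAAA on the plus strand were in none of the 3 and in 7.59% of all. The Alas2 and Hba-a1 regions read tataag, 1 base off TATAAA, which the search did not count. The start regions of Hba-a1 and its neighbour Hba-a2 were the same in all 297 bases that could be aligned. Such near-identical copies also share transcript sequence, so the Hba-a1 probe set may report both genes.

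In QF of Dysf_null mice, Bpgm rose 1.65-fold, and Alas2 and Hba-a1 were higher on every Dysf_null array than on any Control array without passing the test. Car2 gave a small difference with overlapping groups. Of the 4 genes, 1 passed (Bpgm), where 0.455% of 10331 probe sets did. Values are log2 of the quantile-normalized intensity, differences are Dysf_null minus Control with the standard error (SE) of limma's fit, n = 3 arrays a group, and p-values from limma were adjusted by Benjamini-Hochberg over all 10331 probe sets. In whole muscle, fewer cells of a type and less RNA per cell cannot be told apart.

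Alas2 was at 9.09, 8.56 and 8.46 on Control QF arrays 1, 2 and 3, and at 10.19, 9.39 and 9.43 on the Dysf_null QF arrays. The groups did not overlap, and array 1 was the highest of its group in both genotypes. The difference was 0.96 ± 0.23 (95% interval 0.46 to 1.47), a 1.95-fold difference with an adjusted p of 0.133 in the limma fit. With a block for the replicate number in each muscle, which removes what arrays of the same number share, the limma adjusted p was 0.00235, and with that block on the QF arrays alone it was 0.0661. Arrays of the same number deviated from their group means together over all probe sets, and the same-number differences of Alas2 were 1.09, 0.83 and 0.96.

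Bpgm was at 9.21, 9.04 and 9.15 in Control QF and at 9.97, 9.88 and 9.72 in Dysf_null QF. The groups did not overlap, and the 3 arrays of each lay close together, with SDs of 0.089 and 0.13. The difference was 0.72 ± 0.14 (95% interval 0.43 to 1.02, limma adjusted p = 0.0355). The call rested on a narrow margin: of the 12 fits that left out 1 array it held in 1, without Dysf_null_TA array 1, and was lost in the other 11, with limma adjusted p-values from 0.0354 to 0.138. It was also lost on the authors' scaling (0.0646), without the 2 QF arrays numbered 2 (0.204) and with the QF arrays fitted alone (0.367), which uses no TA array for the variance.

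Hba-a1 was at 13.85, 13.87 and 13.85 in Control QF and at 14.19, 14.33 and 14.65 in Dysf_null QF. The groups did not overlap, and the difference was 0.53 ± 0.14 (95% interval 0.23 to 0.84, limma adjusted p = 0.183, 0.0271 with the replicate block, and 0.169 with the block on the QF arrays alone). Globin was among the brightest signals of the array, ranking between 1 and 29 from the top of the 12422 probe sets. Quantile normalization gives each rank the same value on every array, so at these ranks it replaces the measured level by the rank.

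The deposited intensities of Hba-a1 showed a different spread. They were 23615.7, 16178 and 10960.9 in Control QF and 33306.6, 20955.9 and 13992.4 in Dysf_null QF, so the groups overlapped. Within Control QF the highest was 2.15-fold the lowest, and the SD on the log2 scale was 0.554, against 0.0146 after quantile normalization. Arrays of the same number kept their order in both genotypes, and the ratios of Dysf_null to Control were 1.41, 1.30 and 1.28 for numbers 1, 2 and 3. On the authors' scaling the difference was 0.41 ± 0.41 without the block, with a limma adjusted p of 1, and 0.41 ± 0.081 with it, with a limma adjusted p of 0.0339.

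**Figure D1:**
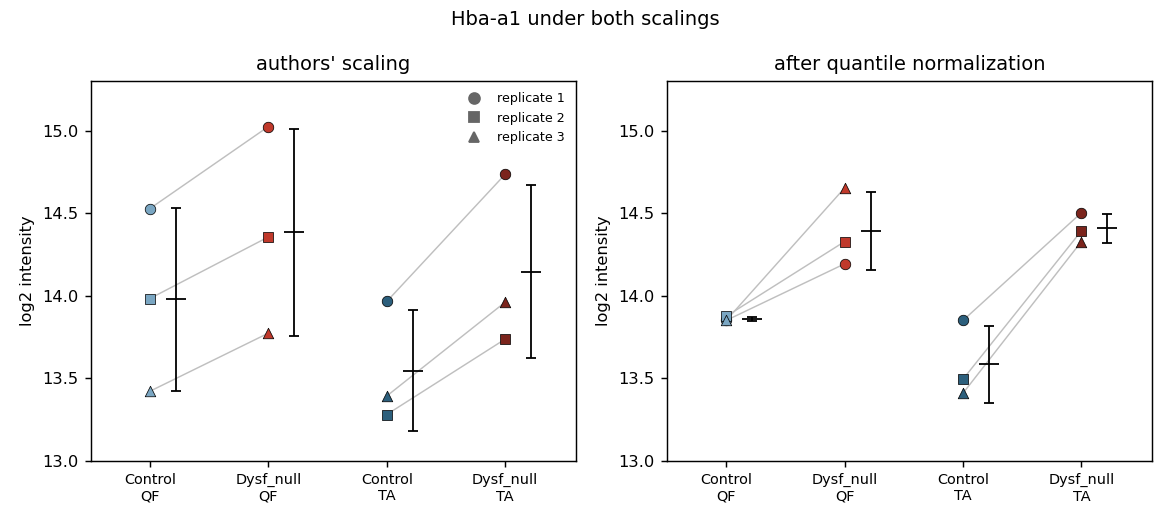
Log2 intensity of Hba-a1 on the 12 arrays under the authors' scaling (left) and after quantile normalization (right). Points are arrays, shapes are replicate numbers, grey lines join the same number within a muscle, and bars are group means with SDs, n = 3; on the left the groups overlap while all 6 lines go up, with ratios of 1.28 to 1.71, and on the right the 3 Control QF arrays fall almost on 1 value.

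Car2 was at 7.31, 7.03 and 7.30 in Control QF and at 7.76, 7.23 and 7.55 in Dysf_null QF. Dysf_null array 2 lay below Control arrays 1 and 3, and the difference was 0.30 ± 0.21 (95% interval -0.16 to 0.76, limma adjusted p = 0.984, and 0.379 with the replicate block). That interval takes in both no difference and a 1.69-fold one. The deposited intensities were 154.6, 158.1 and 148.3 in Control QF and 211.8, 177.2 and 183.4 in Dysf_null QF, and these did not overlap. Non-overlap with Dysf_null higher in QF was thus seen for Alas2, Bpgm and Hba-a1 after quantile normalization, where 4.08% of probe sets had it, and for Alas2, Bpgm and Car2 in the deposited intensities, where 4.24% had it.

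**Figure D2:**
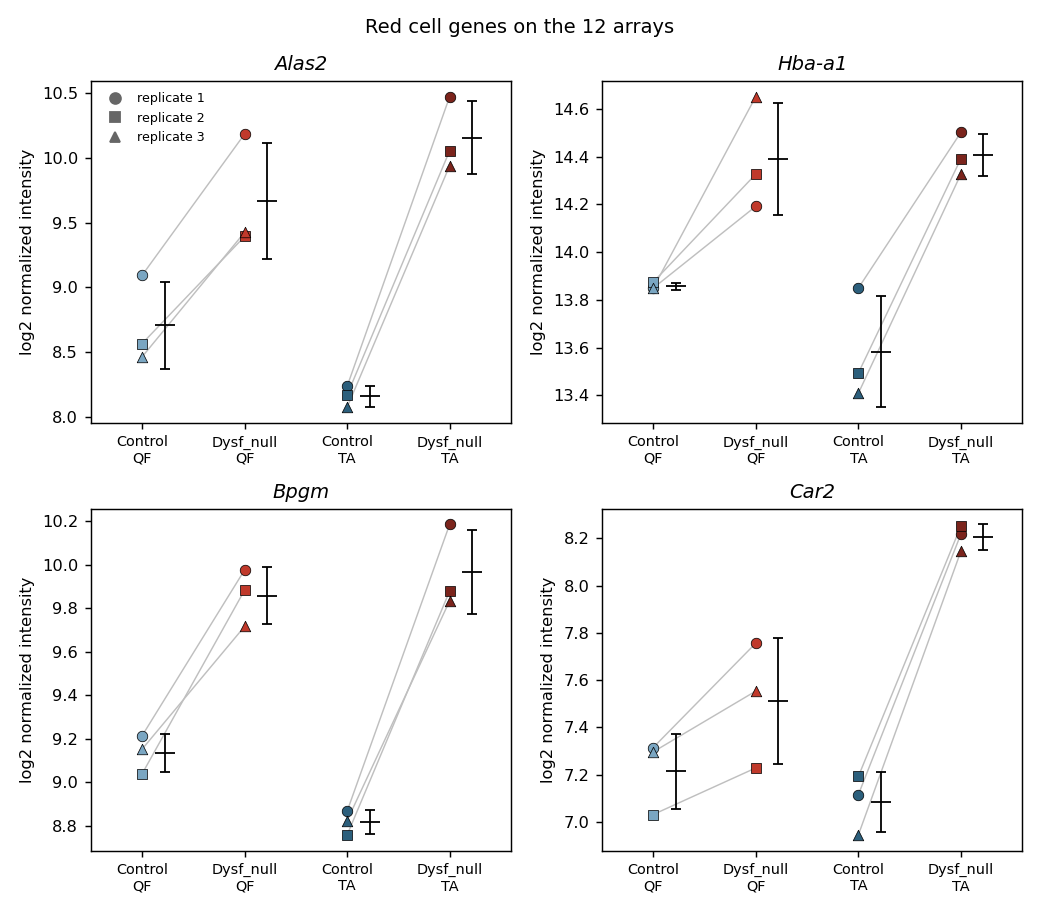
Log2 quantile-normalized intensity of Alas2, Hba-a1, Bpgm and Car2 on the 12 arrays, by group. Points are arrays, shapes are replicate numbers, grey lines join the same number within a muscle, and bars are group means with SDs, n = 3; every line goes up from Control to Dysf_null, by 0.20 to 1.09 in QF and by 0.65 to 2.24 in TA.

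In TA, the comparison by which the 4 genes were chosen, all 4 stood higher in Dysf_null mice. Alas2 was at 8.23, 8.17 and 8.07 in Control TA and at 10.48, 10.06 and 9.94 in Dysf_null TA. Its difference was 2.00 ± 0.23, or 3.998-fold, and its Control arrays lay within 1.11-fold of each other in deposited intensity.

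Bpgm was at 8.87, 8.76 and 8.82 in Control TA and at 10.19, 9.88 and 9.83 in Dysf_null TA, a difference of 1.15 ± 0.14. Car2 was at 7.11, 7.19 and 6.94 in Control TA and at 8.22, 8.25 and 8.15 in Dysf_null TA, a difference of 1.12 ± 0.21. Hba-a1 was at 13.85, 13.49 and 13.41 in Control TA and at 14.50, 14.39 and 14.33 in Dysf_null TA, a difference of 0.82 ± 0.14. For Hba-a1 the size depended on the scaling: on the authors' scaling it was 0.60 ± 0.41, and the deposited intensities of the groups overlapped, with 13641.4 on Dysf_null array 2 and 15980.3 on Control array 1.

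Across all 4 genes the groups did not overlap in TA after quantile normalization, as 6.92% of probe sets did with Dysf_null higher, and 0.407% of probe sets passed the test that chose them. In the deposited intensities Alas2, Bpgm and Car2 did not overlap, as was so for 8.79% of probe sets. Among globin probe sets annotated to 1 gene, the nearest to that threshold from outside was Hbb-b2, an adult beta globin, with a TA difference of 0.96 ± 0.21 (limma adjusted p = 0.119), while Hba-a1 and Car2, with 0.82 ± 0.14 and 1.12 ± 0.21, lay inside. The TA difference exceeded the QF difference by 1.04 ± 0.33 for Alas2, 0.82 ± 0.30 for Car2, 0.43 ± 0.19 for Bpgm and 0.29 ± 0.20 for Hba-a1. Since the TA values chose the genes, no test of these is given.

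Between the muscles, the means of Control mice in TA minus QF were -0.55 ± 0.23 for Alas2, -0.32 ± 0.14 for Bpgm, -0.27 ± 0.14 for Hba-a1 and -0.13 ± 0.21 for Car2. In Dysf_null mice TA minus QF was 0.49 ± 0.23 for Alas2, 0.69 ± 0.21 for Car2, 0.11 ± 0.14 for Bpgm and 0.02 ± 0.14 for Hba-a1. After quantile normalization the order of the group means was the same for all 4 genes, with Control TA lowest, then Control QF, Dysf_null QF and Dysf_null TA. In the deposited intensities Alas2, Bpgm and Car2 had that order, while for Hba-a1 the geometric mean was 21380 in Dysf_null QF and 18100 in Dysf_null TA. For Hba-a1 and Bpgm the means of Dysf_null QF and Dysf_null TA differed by less than 1 SE of the fit, as did the Control means for Car2. The Control TA arrays entered the choice of the genes, so these differences are a description.

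After quantile normalization the genes also differed in how they varied within groups. Over the deviations from the group means, 12 arrays, Alas2 went with Bpgm (r = 0.738) and with Car2 (r = 0.621), and Bpgm less so with Car2 (r = 0.253). Hba-a1 went with none of them after quantile normalization (r = -0.158 with Alas2, -0.081 with Bpgm and 0.0171 with Car2). All pairs share the same arrays and the same scaling, and the normalized Hba-a1 values carry the rank effect described above. In the deposited intensities array 1 was the highest of its group for both Hba-a1 and Alas2, in every group. The r values given here thus describe the normalized values only. Whether Hba-a1 varied with the other genes on the authors' scaling is not known, as r was not computed there.

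The other globin probe sets gave the following values. Hbb-b2 was at 12.24, 12.33 and 12.18 in Control QF and at 13.06, 13.06 and 12.66 in Dysf_null QF, with no overlap, a difference of 0.67 ± 0.21 and a limma adjusted p of 0.331, or 0.0106 with the replicate block. In TA it was at 12.26, 11.51 and 11.48 in Control and at 13.02, 12.74 and 12.36 in Dysf_null mice, again with no overlap, and the difference of 0.96 had a limma adjusted p of 0.00215 with the replicate block. The name Hbb-b2 is that of the array's annotation, and the adult beta globin copies are nearly identical, so the probe set may report more than 1 of them.

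Other globin probe sets are annotated to several genes. One, given to both Hba-a1 and Hba-a2, gave 0.54 ± 0.25 in QF and 1.15 ± 0.25 in TA (limma adjusted p = 0.737 and 0.101). With the replicate block its limma adjusted p in TA was 0.0178, and with that block on the TA arrays alone it was 0.112. On the authors' scaling its TA difference was 1.09 ± 0.28 (limma adjusted p = 0.258). Another, given to the adult beta globins Hbb-bt, Hbb-bs, Hbb-b2 and Hbb-b1 and also among the brightest of the array, gave 0.35 ± 0.12 in QF (limma adjusted p = 0.374) and rose in TA by 0.60 ± 0.12 (limma adjusted p = 0.0438). At its ranks of 2 to 18 normalization acts as it does on Hba-a1. The deposited intensities in TA were 18736.3, 11030.5 and 12504.5 in Control and 23701.3, 13647.4 and 17017.8 in Dysf_null mice, which overlapped, and on the authors' scaling the difference was 0.36 ± 0.42 (limma adjusted p = 1). Of the 12 fits that left out 1 array, the call held in the 1 without Control_TA array 1 (limma adjusted p = 0.0159) and was lost in the others. A further probe set given to the same 4 genes was at the floor on all 12 arrays. The embryonic globins Hba-x, Hbb-bh1 and Hbb-y were dim and did not pass in either muscle. Hba-x gave -0.02 in both, Hbb-bh1 gave -0.13 in QF and 0.42 in TA, and Hbb-y, above the floor on 7 arrays, gave -0.81 and 0.33, with -0.29 and 0.41 on its second probe set. Hba-ps3, an alpha globin pseudogene named after its values were seen, gave 0.38 ± 0.41 in QF and 0.52 ± 0.41 in TA.

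The wider red cell programme was read from 7 lists with 71 further genes, of which 41 were tested. The genes followed here were chosen because they passed in TA and were left out of these lists. The TA counts of the lists are thus in part set by that choice. None passed over all probe sets in QF or in TA with limma, and 5 and 3 had an unadjusted p under 0.05, where 699 and 498 of 10331 probe sets did. With the replicate block, limma called Hbb-b2 in QF, and Hbb-b2 and Tfrc in TA, and with the block on the arrays of 1 muscle alone it called 0 of the 41 in either. The median difference of the 41 was -0.006 in QF, with 19 positive, and 0.15 in TA, with 26 positive, beside medians of -0.01 and -0.003 over all probe sets.

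Of 7 other tested enzymes of haem synthesis, all 7 fell short of the threshold in both muscles. Alas1, the housekeeping form of the enzyme that Alas2 encodes, gave 0.28 ± 0.14 in QF and -0.09 ± 0.14 in TA (limma adjusted p = 0.809 and 1). Alad, the next enzyme of the pathway, gave 0.15 ± 0.18 and 0.23 ± 0.18, Uros gave -0.32 ± 0.18 and -0.11 ± 0.18, and ferrochelatase Fech, which puts iron into the ring, gave -0.26 ± 0.37 and 0.15 ± 0.37. The list's median was 0.05 in QF and -0.07 in TA.

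Of 4 other tested red cell enzymes, all 4 fell short as well. Peroxiredoxin Prdx2, abundant in red cells and present in other tissues, gave 0.21 and 0.20. The pyruvate kinase of liver and red cells, Pklr, gave -0.95 in QF and 0.48 in TA with an SE of 0.52. Catalase Cat gave -0.19 and 0.04, and glutathione peroxidase Gpx1 gave -0.03 and -0.003. Carbonic anhydrase I, Car1, a major enzyme of mature red cells, was above the floor on 2 of the 12 arrays and was not tested.

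None of 7 tested membrane and skeleton genes passed. Slc4a1, the band 3 anion exchanger and a defining red cell protein, gave -0.01 ± 0.41 in QF and 0.52 ± 0.41 in TA. Rhag and Rhd, of the Rh complex, gave -0.57 ± 0.28 and -0.54 ± 0.65 in QF and 0.24 ± 0.28 and 0.94 ± 0.65 in TA, and Ank1, an ankyrin of red cells that muscle also makes, gave 0.32 and 0.32. The glucose transporter Slc2a1 gave -1.05 ± 0.42 in QF with 5 arrays above the floor, and Epb42 was above the floor on 1 array. The median was -0.006 in QF and 0.32 in TA, with 3 and 6 of the 7 positive.

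Of 5 genes of iron handling none passed. The transferrin receptor Tfrc, which brings iron into developing red cells and other growing cells, was at 9.96, 10.10 and 10.44 in Control TA and at 10.91, 10.71 and 11.35 in Dysf_null TA. These did not overlap, and the difference was 0.82 ± 0.20 (limma adjusted p = 0.205, and 0.0166 with the replicate block). In QF it gave 0.05 ± 0.20. The mitochondrial transporter Abcb10 gave 1.09 ± 0.45 in QF and -0.32 ± 0.45 in TA.

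Of 8 tested transcription factors and receptors of the erythroid lineage none passed in either muscle. Gata1 gave -0.44 ± 0.47 and 0.21 ± 0.47, Klf1 gave 0.18 ± 0.54 and -0.99 ± 0.54, and the partner factor Nfe2 gave -0.67 ± 0.34 and 0.27 ± 0.34, in QF and TA. Gfi1b, a repressor of the lineage, gave -0.70 ± 0.37 and -0.11 ± 0.37, and the erythropoietin receptor Epor gave -0.87 ± 0.51 and -0.17 ± 0.51. Tal1 was at the floor on all 12 arrays. The SEs in this list ran from 0.34 to 0.75, against 0.14 for Bpgm.

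Of 6 genes of late maturation none passed. The ubiquitin-conjugating enzyme Ube2l6, which interferon also induces, gave 1.47 ± 0.64 in QF and 1.75 ± 0.64 in TA, with Control array 2 at the floor in both muscles. Foxo3 gave -0.44 and -0.20. The genes Slc4a1, Epb42, Tal1 and Gata1, and Ctsg and Mmp8 of the neutrophil list, are named as defining markers after their values were seen, and the other genes of these lists by the rule given with the methods.

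**Figure D3:**
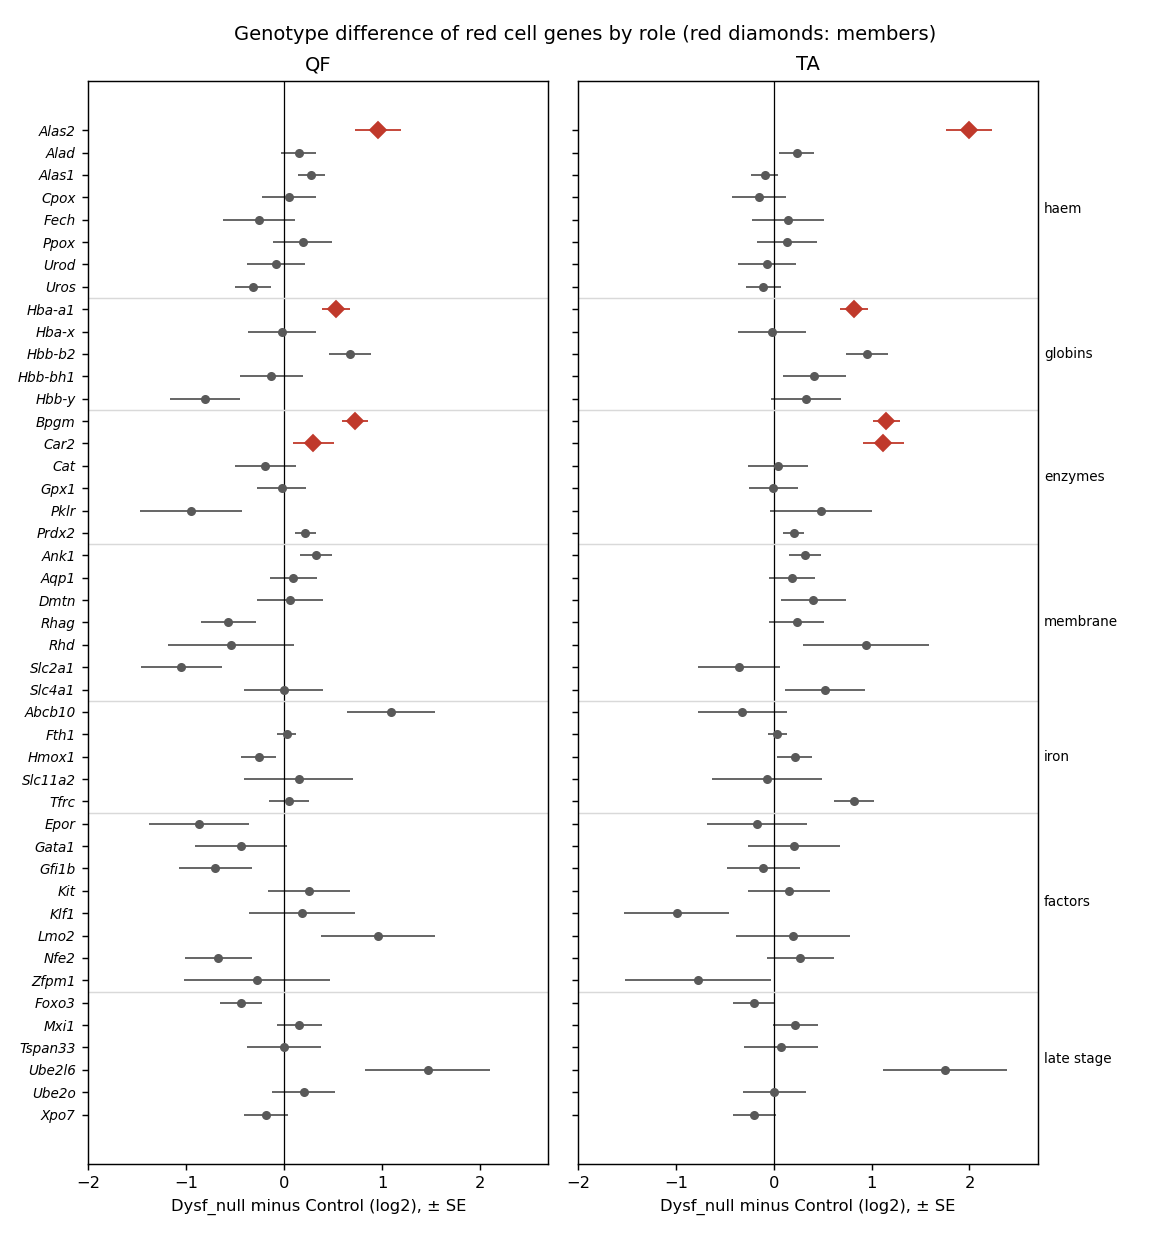
Genotype difference (log2, Dysf_null minus Control, bars are SEs of the limma fit, n = 3 arrays a group) of the 4 genes (red diamonds) and the 41 other tested red cell genes (grey), by role, in QF (left) and TA (right). Alas2 has the highest value of the haem synthesis genes in both panels (0.96 and 2.00), which in TA the choice of the 4 genes favours. The factors and membrane genes scatter on both sides of 0 in QF.

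Relatives of the 4 genes that muscle or other cells use were compared with them. Pgam2, the phosphoglycerate mutase of muscle and a relative of Bpgm, gave 0.17 ± 0.12 in QF and 0.13 ± 0.12 in TA, and the widely expressed Pgam1 gave 0.46 ± 0.21 and 0.04 ± 0.21. Among carbonic anhydrases, Car3, the abundant form of slow muscle fibres and fat, gave 0.36 ± 0.22 and 0.65 ± 0.22, the membrane-bound Car4 gave -0.03 and -0.10, and Car14 gave -0.07 and -0.54. Myoglobin, Mb, the oxygen-binding globin of muscle fibres, gave 0.19 ± 0.14 in QF and -0.06 ± 0.14 in TA. None of the 7 tested relatives passed in either muscle with limma, with 1 and 2 at an unadjusted p under 0.05.

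Markers of other cells were read beside the red cell genes. Among 12 tested neutrophil markers, 3 rose in TA, S100a8, S100a9 and Mmp9 (at the floor on all 3 Control TA arrays), and S100a9 fell in QF, with a difference of -1.82 ± 0.325 (limma adjusted p = 0.028). S100a9, a calcium-binding protein of neutrophils, was at 7.02, 5.96 and 6.48 in Control QF and at 4.53, 4.53 and 4.96 in Dysf_null QF, where 4.53 is the floor, so its Dysf_null level in QF is a bound. In TA it was at 4.53, 4.64 and 4.84 in Control and at 7.32, 7.44 and 7.46 in Dysf_null mice. Thus S100a9 and the red cell genes were both higher in Dysf_null TA, and in QF S100a9 was lower where Alas2 and Bpgm were higher.

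The summed normalized intensity of the 14 measured neutrophil markers was 793 to 1036 in Control TA and 1780 to 1848 in Dysf_null TA, and 1030 to 1509 in Control QF and 834 to 1106 in Dysf_null QF. Ctsg and Mmp8 were above the floor on 2 arrays and on 1. The part of neutrophils in the red cell values was not tested.

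Osteoclasts, the cells that resorb bone, also make Car2. Among 7 osteoclast markers Acp5, their phosphatase, rose in TA by 1.87 ± 0.25 (limma adjusted p = 0.0039) and gave 0.38 ± 0.25 in QF. The protease Ctsk gave 1.43 ± 0.29 in TA (limma adjusted p = 0.0687) and 0.02 ± 0.29 in QF. Of the 7 markers 4 were positive in each muscle, with median differences of 0.02 in QF and 0.05 in TA, so the list did not rise as a whole. The list's summed intensity, which takes in Acp5 and Ctsk, was 879 to 945 in Control TA, 1433 to 1628 in Dysf_null TA, 913 to 1742 in Control QF and 1005 to 2036 in Dysf_null QF. Among 5 bone matrix and osteoblast markers Mmp13 rose in TA by 2.23 ± 0.40 (limma adjusted p = 0.0247), and their sum was 203 to 282 in Control TA, 436 to 579 in Dysf_null TA, 144 to 268 in Control QF and 158 to 330 in Dysf_null QF. The part of these cells in the Car2 value was not tested.

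None of 10 endothelial markers passed in either muscle. Their summed intensity was 1980 to 2190 in Control QF and 2257 to 2548 in Dysf_null QF, which did not overlap, and 2094 to 2328 in Control TA and 1951 to 2255 in Dysf_null TA. Their median difference was 0.14 in QF, with 8 of 10 positive, and -0.11 in TA, with 3 of 10 positive. The part of blood vessels in the red cell values was not tested. Platelet markers were near the floor, with sums of 97 to 151 over all 12 arrays, and none of 3 tested passed. None of 7 marrow B cell precursor markers passed, with sums of 483 to 751 in Control TA and 613 to 839 in Dysf_null TA. Of 10 tested macrophage markers 8 were positive in QF (median 0.42) and 9 in TA (median 0.25), and the 1 that passed was the other in TA, Cd68, which fell by 1.27 on the log2 scale. Their summed intensity was 3082 to 3670 in Control QF and 3976 to 4751 in Dysf_null QF, which did not overlap, and 3137 to 3887 in Control TA and 3694 to 4265 in Dysf_null TA. The part of macrophages in the red cell values was not tested. None of 5 nerve markers passed.

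The other genes whose levels were most like the mean of the 4, each standardized, over the 12 arrays were Mkrn1 (r = 0.957), Tent5c (0.928), H2-K1 (0.919), Cd74 (0.909), Isg20 (0.902), Fos (0.90), Acp5 (0.898), Sfrp2 (0.898), H2-D1 (0.891) and H2-Aa (0.875). Over the deviations from the group means the r was 0.776 for Mkrn1, 0.527 for Tent5c, 0.539 for Isg20 and 0.542 for Sfrp2, and it was -0.325 for H2-K1, -0.268 for Cd74 and -0.199 for Acp5. The r over these deviations was -0.47 for H2-D1, 0.166 for H2-Aa and 0.093 for Fos. Mkrn1 thus had the highest r of these genes over the deviations, which were pooled from the 4 groups. The r of Tent5c, Isg20 and Sfrp2 was lower, and that of H2-K1, Cd74, Acp5 and H2-D1 was negative. Whether any of these r differed from no relation was not tested. Isg20 was at the floor on the Control TA arrays, which gave it no deviations there. Each r is that of the gene's most alike probe set. Other probe sets had an r with the mean of the 4 of 0.82 and -0.189 for H2-K1, 0.856 and 0.645 for H2-D1, and 0.0991 for Fos.

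Mkrn1, a makorin ring finger protein, was on its most alike probe set at 8.04, 7.81 and 7.88 in Control QF, at 9.21, 8.57 and 8.66 in Dysf_null QF, at 7.74, 7.65 and 7.84 in Control TA and at 9.58, 8.88 and 8.90 in Dysf_null TA. Array 1 was the highest of both Dysf_null groups, as it was for Alas2, and its r with Alas2 was 0.971, or 0.845 within groups. The other 2 Mkrn1 probe sets had an r of 0.813 and 0.458 with the mean of the 4 genes.

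Among genes other than the 4, Tent5c, a poly(A) polymerase, had the highest r with Bpgm (0.964) and with Hba-a1 (0.94). The r of Bpgm with Alas2 was 0.967, and the choice by the TA values favours a high r among the 4 genes. Tent5c was at 7.30, 7.27 and 7.49 in Control QF and at 8.53, 8.70 and 8.60 in Dysf_null QF. Isg20, an exonuclease, was at the floor on all 3 Control TA arrays and at 7.52, 6.94 and 6.93 in Dysf_null TA, so its TA difference is at least 2.60 ± 0.32, and in QF it gave 0.60 ± 0.32. For Car2, whose r with Alas2 was 0.894, the most alike genes outside the 4 were Acp5 (r = 0.875), Lama4 (0.866) and Mmp13 (0.866). None of them was among the 3 most alike of Alas2, Bpgm or Hba-a1, but the r of Acp5 with the mean of the 4 genes was 0.898. Over the deviations from the group means the r with Car2 was 0.352 for Acp5, 0.755 for Lama4 and 0.0845 for Mmp13. Another Lama4 probe set was at or near the floor. For Hba-a1 the most alike outside the 4 were Tent5c, Ywhaq (0.908, on 1 of 3 probe sets) and Sfrp2 (0.903).

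**Figure D4:**
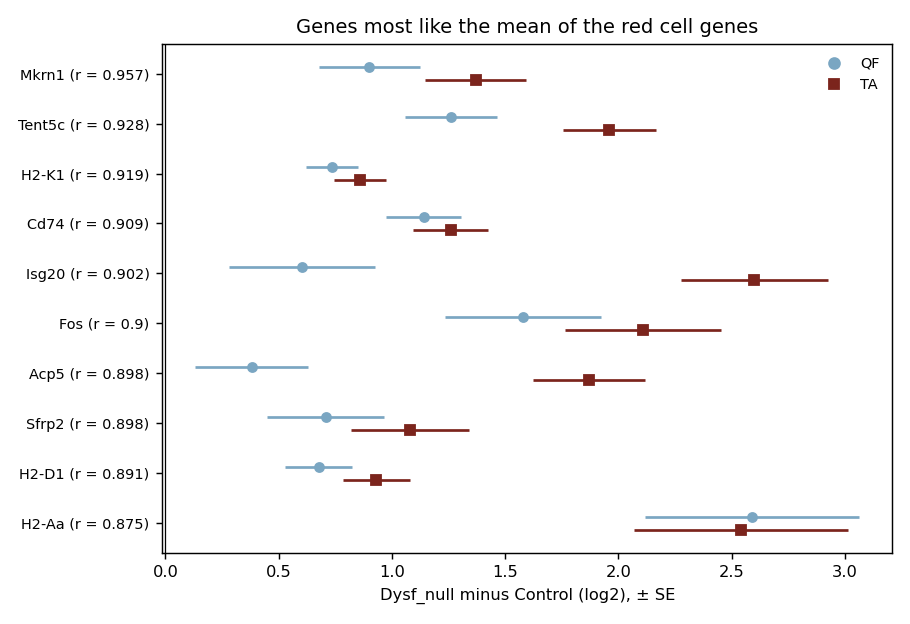
Genotype difference (log2, Dysf_null minus Control, bars are SEs of the limma fit, n = 3 arrays a group) in QF (circles) and TA (squares) of the 10 genes whose levels over the 12 arrays were most like the mean of Alas2, Bpgm, Hba-a1 and Car2, with their r. All lie above 0 in both muscles, which the choice by likeness favours; Isg20 and Acp5 lie far apart between the muscles (0.60 and 0.38 in QF, at least 2.60 and 1.87 in TA), and H2-Aa, H2-K1 and Cd74 lie close.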

How the data were processed

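The authors deposited linear intensities. Without the lowest and highest 2% of values, the mean of each array was 200.1 or 200.2, as after scaling to 1 target. Software, background correction and summarisation: not given in the sources used here.

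Of 12488 probe sets 66 controls were left out. The other 12422 were quantile normalized, floored at the 25th percentile (intensity 23.025, log2 4.53) and log2 transformed by this re-analysis, not by the authors, and tests covered the 10331 that exceeded the floor on 3 arrays or more. The annotation gives 1 symbol to 10833 probe sets, several to 396 and none to 1193, and only the first were named. Lists use the brightest probe set of each gene. Group means were fitted with limma 3.58.1 (R 4.3.3) to all 12 arrays, with an intensity trend, 8 residual degrees of freedom, two-sided tests and Benjamini-Hochberg adjustment, calling adjusted p-values under 0.05. The fit was tested on simulated data. The median SE of a difference was 0.323, and the number of arrays limits precision.

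Deviations from group means correlated between same-numbered arrays of the 2 genotypes, with r of 0.39, 0.711 and 0.66 in QF and 0.182, 0.114 and 0.231 in TA. Between arrays of different number r ran from -0.581 to 0.0671 in QF and from -0.224 to 0.0109 in TA. Deviations from a group mean cancel within the group, so the r of different numbers is not independent of that of same numbers. Every same-numbered pair was above 0.1, so the numbers were taken to pair the arrays, although r in TA was low. That pairing was inferred from these values, as the labels give the numbers only as replicates. The main fit left the pairing out, and values with the replicate block are given where they change a call.

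The genes and lists were chosen with earlier results of these data known. Named from each list, in order of the smaller p of both muscles, were up to 4 genes and every gene called, with exceptions stated in the text, all relatives of the 4 genes, and the genes most alike by Pearson r over the 12 arrays. Alternatives covered scaling, floor, filter, variance, block and arrays left out. Figures used Python 3.11.15 and matplotlib 3.10.9.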

Additional observations from a re-analysis of the deposited data

Results flagged for a closer look

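For 2 of the listed genes, both neutrophil markers, the genotype difference itself differed between the muscles by limma's interaction term. S100a9 gave a TA difference 4.56 above its QF difference on the log2 scale (limma adjusted p = 0.00115, lower in 3 of 3 Dysf_null QF arrays and higher in 3 of 3 Dysf_null TA arrays than in any Control array of the muscle), with floor values in both muscles. S100a8 gave 3.90 (limma adjusted p = 0.0128).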

How the results depend on the processing

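Alas2, Hba-a1 and Car2 in QF kept their direction in all 25 alternatives each, as did Bpgm, and all 4 did in TA. Bpgm in QF lost its call on the authors' scaling (adjusted p = 0.0646), without the intensity trend (0.19), with array weights (0.109), with the QF arrays alone (0.367) or alone with the replicate block (0.0867) and without both QF arrays numbered 2 (0.204). Leaving out 1 array gave 0.0354 to 0.138 for Bpgm, 0.113 to 0.396 for Alas2, 0.123 to 0.449 for Hba-a1 and 0.648 to 1 for Car2. The replicate block brought Alas2 (0.00235) and Hba-a1 (0.0271) past the threshold, also on the authors' scaling (0.00309 and 0.0339), a setting chosen after seeing the data, as was leaving the globins at that scaling, but with the block on the QF arrays alone they were at 0.0661 and 0.169. Fitted over all 12 arrays, the block did not change the calls of Bpgm or Car2 in QF.

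Called probe sets numbered 47 in QF and 42 in TA. The QF count was 7 without the trend, 23 with array weights, 273 with the replicate block within each muscle, 285 with that block on the authors' scaling, 0 with the QF arrays alone, 8 alone with the replicate block, 2 without both QF arrays numbered 2, and 21 to 82 without 1 array (Dysf_null_QF 1 left out gave 26 and its number 3 gave 21; Control_QF 1, 2, 3 gave 22, 27, 82; Dysf_null_TA 2, 3 gave 29, 28; Control_TA 1, 2 gave 31, 27). The TA count was 192 with array weights, 159 with the block, 191 with it on the authors' scaling, 4 with the TA arrays alone and the replicate block, and 14 to 45 without 1 array (Dysf_null_TA 1, 2, 3 gave 25, 17, 14; Control_TA 1, 2, 3 gave 23, 18, 18). Of the 41 other red cell genes none was called; the block gave 1 in QF and 2 in TA on either scaling, and 0 in both on the arrays of 1 muscle alone; array weights gave 3 in TA, and leaving out 1 array gave 0 in QF and 0 to 1 in TA, namely Hbb-b2 without Control_TA 1 (adjusted p = 0.0201). The causes were not tested.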
